A study of Saccharomyces cerevisiae with 24 samples.

Results

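Transcript levels of budding yeast, Saccharomyces cerevisiae, were compared between nitrogen-limited and carbon-limited chemostats of the reference strain, both on minimal medium with the high level of inositol and choline. The comparison rests on 6 of the 24 arrays of the series, 3 nitrogen-limited and 3 carbon-limited, chosen by title, and on 5449 genes with 1 probe set each. The series as a whole crosses strain (reference or snf1 mutant), limiting nutrient and level of inositol and choline in 8 groups of 3 arrays. Its stated purpose was to follow the global response to inositol and choline and to deletion of the kinase gene SNF1 under both limitations. In a chemostat, fresh medium enters a culture at a fixed rate and 1 nutrient sets how many cells can grow; biomass was taken at steady state and frozen, and its total RNA was labelled with biotin for Affymetrix arrays. The amounts behind the high level, the nutrients' concentrations, the dilution rate and the full genotype of the strain were not found in the labels, nor whether the 3 replicates of a group came from separate cultures. The p-values therefore set each difference between the groups against the scatter of these samples within both groups, and that scatter may be technical. Each value comes from the RNA of a whole culture, in which fewer cells expressing a gene and less RNA per cell cannot be told apart.

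Yeast prefers some nutrients over others and keeps the genes for poorer ones silent while better ones last. Nitrogen catabolite repression keeps permeases and enzymes for poor nitrogen sources off, through GATA transcription factors, until good sources run short. Carbon catabolite repression, in which the Snf1 kinase and the repressor Mig1 act in opposite directions, keeps genes for respiration, gluconeogenesis and the use of ethanol, acetate and fatty acids off while glucose is plentiful. In a nitrogen-limited chemostat residual glucose is usually high, and in a carbon-limited one it is low.

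The deposited values are on a log scale whose base is taken as 2, and all values below are on it unless a fold is given; values near background may be compressed, which was not tested. The nitrogen-limited arrays are called N1, N2 and N3 and the carbon-limited ones C1, C2 and C3. Array quality differed between the groups and within the nitrogen-limited one. The difference between 3' and 5' probe sets of 7 control genes, which grows as RNA breaks down or copying of RNA ends early, was 2.67, 1.33 and 0.85 on the log2 scale on N1, N2 and N3, and 0.70, 0.78 and 0.69 on C1, C2 and C3. The 3 nitrogen-limited arrays all lay above the carbon-limited ones, and N1 was far above both others. The SD over replicates had a median over genes of 0.186 in the nitrogen-limited group and 0.0614 in the carbon-limited group. N1 departed 2-fold or more from the mean of the other nitrogen-limited arrays for 237 genes. Of these 27 were called, a smaller share than the 29.3% of all genes. Such a departure widens the spread of the group, which makes a call less likely. There were 1332 genes called only when N1 was left out. HAC1, the transcription factor of the unfolded protein response, gave 6.64, 9.45 and 9.89 under nitrogen limitation and 9.77, 9.70 and 9.79 under carbon limitation and was not called. Counts with N1 left out and with the 3' to 5' difference as a covariate are given with the calls. Genes used to check the labels fitted the titles, since DAL5, DUR3, GAP1 and MEP2 were called higher and ICL1, JEN1 and ADH2 lower on the nitrogen-limited arrays, while MLS1, also a glucose-repressed gene, was called higher. SNF1 was present in both groups, at 7.09, 7.93 and 8.47 under nitrogen limitation and 8.30, 8.33 and 8.16 under carbon limitation, and was not called.

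**Figure D1:**
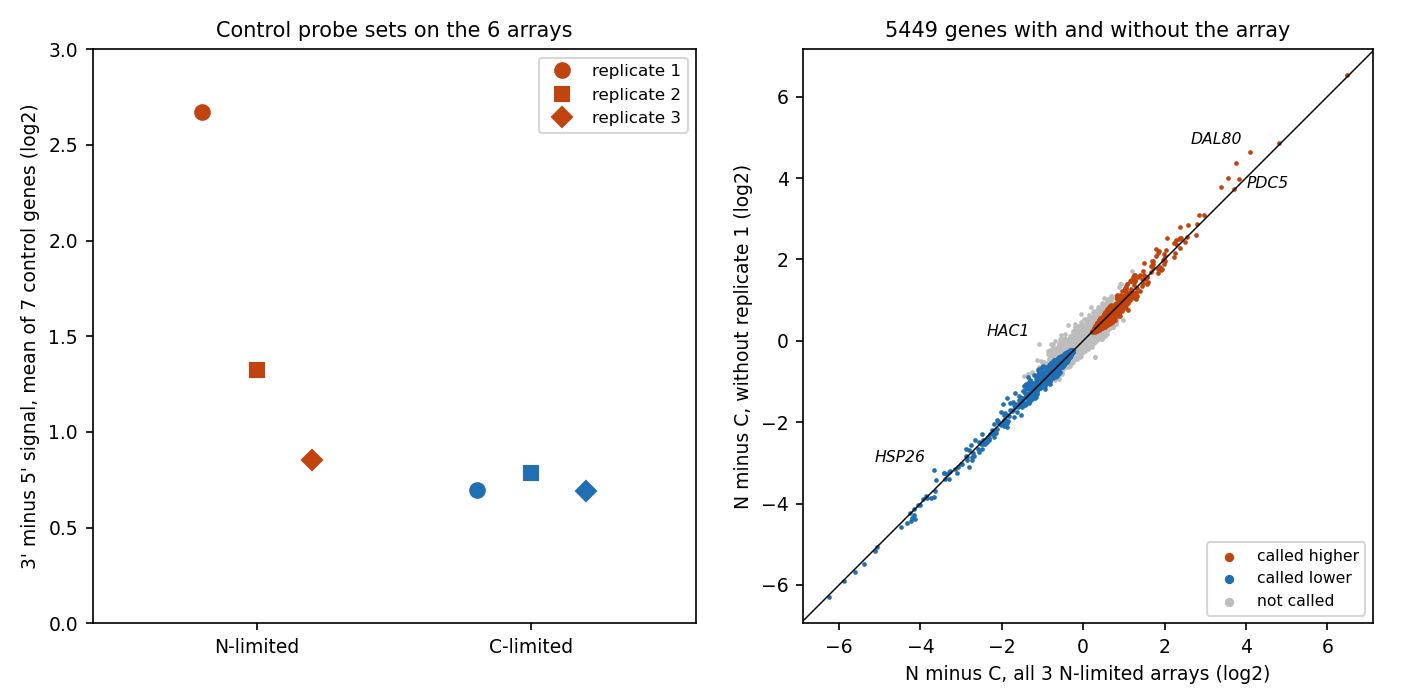
Left, difference between 3' and 5' signal of 7 control genes (log2) on each of the 3 nitrogen-limited and 3 carbon-limited arrays, with N1 of the nitrogen-limited group at 2.67 and the carbon-limited arrays between 0.69 and 0.78. Right, nitrogen minus carbon difference (log2) of 5449 genes with all 3 nitrogen-limited arrays (horizontal) and without replicate 1 (vertical). HAC1, not called, departs from the diagonal, and 2 called genes moved by more than 0.5. A departure on N1 widens the spread used for the call, so that most called genes lie near the diagonal was partly fixed in advance.

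Of the 5449 genes, 1598 passed an adjusted p of 0.05 (limma, Benjamini-Hochberg) and are named called below, which is 29.3% of those tested. There were 908 genes called higher under nitrogen limitation (16.7%) and 690 called lower (12.7%). All 1598 had nitrogen-limited arrays that did not overlap the carbon-limited ones, as did 51.4% of all genes. Differences of 2-fold or more were called for 126 genes that rose (2.31%) and 236 that fell (4.33%), so larger changes were more often falls. The median difference over all genes was 0.06 on the log2 scale. The arrays did not overlap for 30.8% of genes in the higher and 20.6% in the lower direction. Without N1 2930 genes were called (53.8%), 32.2% higher and 21.6% lower, among them all 1598, each in the same direction. Genes far off on N1 have a wide spread and are called less easily, so this recall was partly fixed in advance. Without N2 or N3 1005 and 1680 genes were called, and without C1, C2 or C3 715, 751 and 840. The excess of rises did not hold without C1, with 330 genes called higher and 385 lower, or without C2, with 370 higher and 381 lower. Without C3 422 were higher and 418 lower. With the 3' to 5' difference as a covariate the count was 2805. In what follows, the range in parentheses after a count of called genes is that found when each of the 6 arrays is left out in turn, and the array is named where its omission moves the count by more than 1.5 times. List counts are to be read against the shares over all genes, 16.7% higher and 12.7% lower. Those shares move with the left-out array too, to 32.2% and 21.6% without N1 and to 330 and 385 of 5449 genes without C1. None of the 1746 background probe sets, which carry no S. cerevisiae gene, was called.

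**Figure D2:**
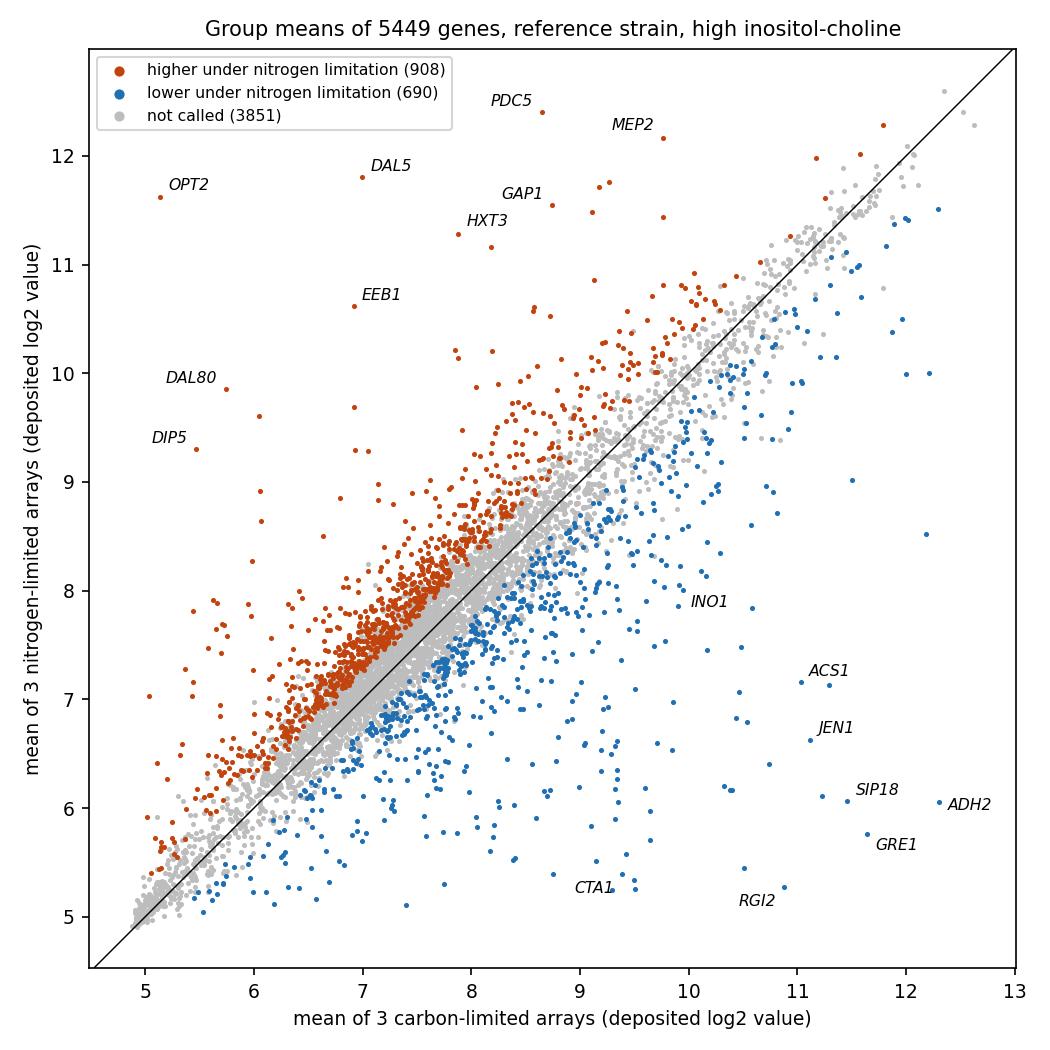
Mean deposited log2 value of each of 5449 genes on 3 nitrogen-limited arrays (vertical) against 3 carbon-limited arrays (horizontal), with the 908 genes called higher, the 690 called lower and the 3851 not called, and equality as a line. Nitrogen permease genes such as OPT2 and DAL5 stand far above the line, and ADH2, GRE1 and RGI2 far below it.

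The largest rises were those of transport and regulatory genes of nitrogen supply. OPT2, an oligopeptide transporter, gave 11.55, 11.52 and 11.80 on nitrogen-limited arrays, against 5.18, 5.09 and 5.14 on carbon-limited arrays. Its carbon-limited values were all below the background floor, the 95th percentile of background probe sets on each array, so it was at least 65.1-fold higher (adjusted p = 2.32e-07). DAL5, the allantoate permease, gave 11.68, 11.76 and 11.97 on nitrogen-limited arrays, against 6.96, 7.07 and 6.96 on carbon-limited arrays, which is 28-fold higher (adjusted p = 7.41e-07). The 3 nitrogen-limited arrays lay close together for both genes. DAL80, a GATA repressor that is itself under nitrogen catabolite repression, gave 8.82, 10.40 and 10.34 on nitrogen-limited arrays, against 5.74, 5.72 and 5.77 on carbon-limited arrays, or 17.3-fold higher (adjusted p = 0.000641). DIP5, the permease of glutamate and aspartate, gave 9.0, 9.38 and 9.52 on nitrogen-limited arrays, against 5.46, 5.49 and 5.44 on carbon-limited arrays and was at least 13-fold higher (adjusted p = 6.47e-06). N1 was the lowest nitrogen-limited array for DAL80 and DIP5, though far above every carbon-limited array. PTR2, the carrier of di- and tripeptides, gave 8.75, 9.83 and 10.24 on nitrogen-limited arrays, against 6.12, 6.01 and 6.0 on carbon-limited arrays (log2 difference 3.56, SE 0.35), and again N1 was the lowest of its group.

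Other genes among the 15 largest rises came from other functions. PDC5, a minor isoform of pyruvate decarboxylase, gave 11.19, 12.78 and 13.25 on nitrogen-limited arrays, against 8.61, 8.74 and 8.59 on carbon-limited arrays, a 13.5-fold rise whose log2 size was 3.76 with all arrays and 4.37 without N1. EEB1, which makes ethyl esters of fatty acids, gave 10.54, 10.65 and 10.67 on nitrogen-limited arrays, against 6.80, 6.93 and 7.02 on carbon-limited arrays and was 13-fold higher, with no overlap and little spread. HXT3, a low-affinity glucose transporter, gave 10.54, 11.48 and 11.82 on nitrogen-limited arrays, against 8.03, 7.87 and 7.73 on carbon-limited arrays and was 10.6-fold higher. VBA1, a vacuolar carrier of basic amino acids, rose by 2.98 on the log2 scale, the uncharacterised gene YBL029W by 2.85 and WSC4, of the family of cell wall sensors, by 2.58. GAP1, DAL7, MFA1 and MFA2 complete the 15 and are described with their groups.

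The largest falls were those of glucose-repressed and stress genes. ADH2, the alcohol dehydrogenase that oxidises ethanol, gave 6.17, 6.08 and 5.92 on nitrogen-limited arrays, against 12.33, 12.31 and 12.28 on carbon-limited arrays, and was 75.8-fold lower (adjusted p = 2.32e-07). GRE1, a hydrophilin induced by osmotic stress, gave 5.83, 5.79 and 5.67 on nitrogen-limited arrays, against 11.63, 11.59 and 11.70 on carbon-limited arrays and was 58.6-fold lower. SIP18, a hydrophilin of desiccated cells, gave 6.24, 5.98 and 5.98 on nitrogen-limited arrays, against 11.45, 11.45 and 11.49 on carbon-limited arrays and was 42.1-fold lower. For these 3 genes the groups were separated by more than 5 units on the log2 scale. RGI2, a respiratory growth gene, gave 5.40, 5.20 and 5.22 on nitrogen-limited arrays, against 10.89, 10.87 and 10.88 on carbon-limited arrays, below the floor on every nitrogen-limited array, so it was at least 39.1-fold lower. SPG4, a stationary phase gene, changed by -5.11 and FDH1, a formate dehydrogenase whose near-identical copy FDH2 was not measured apart, by -5.06 on the log2 scale. Carriers of small acids were also among them. The lactate permease gene JEN1 changed by -4.49, SFC1, the mitochondrial carrier of succinate and fumarate, by -4.25, and ADY2, ATO2 and ATO3, members of 1 family of acetate and ammonium transporters, by -4.05, -4.12 and -4.34. SFC1 and ADY2 were below the floor on all nitrogen-limited arrays and at least 15.1-fold and 13.1-fold lower. The others of the 15 were SPS100, a spore wall gene, at -4.23, the hexose transporter gene HXT5 at -4.21, the stress-induced Hsp70 gene SSA3 at -4.16 and the uncharacterised YDL218W at -4.16, which was at least 15-fold lower and whose second carbon-limited array (9.76, 8.86 and 9.86 in order) lay below the other two.

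**Figure D3:**
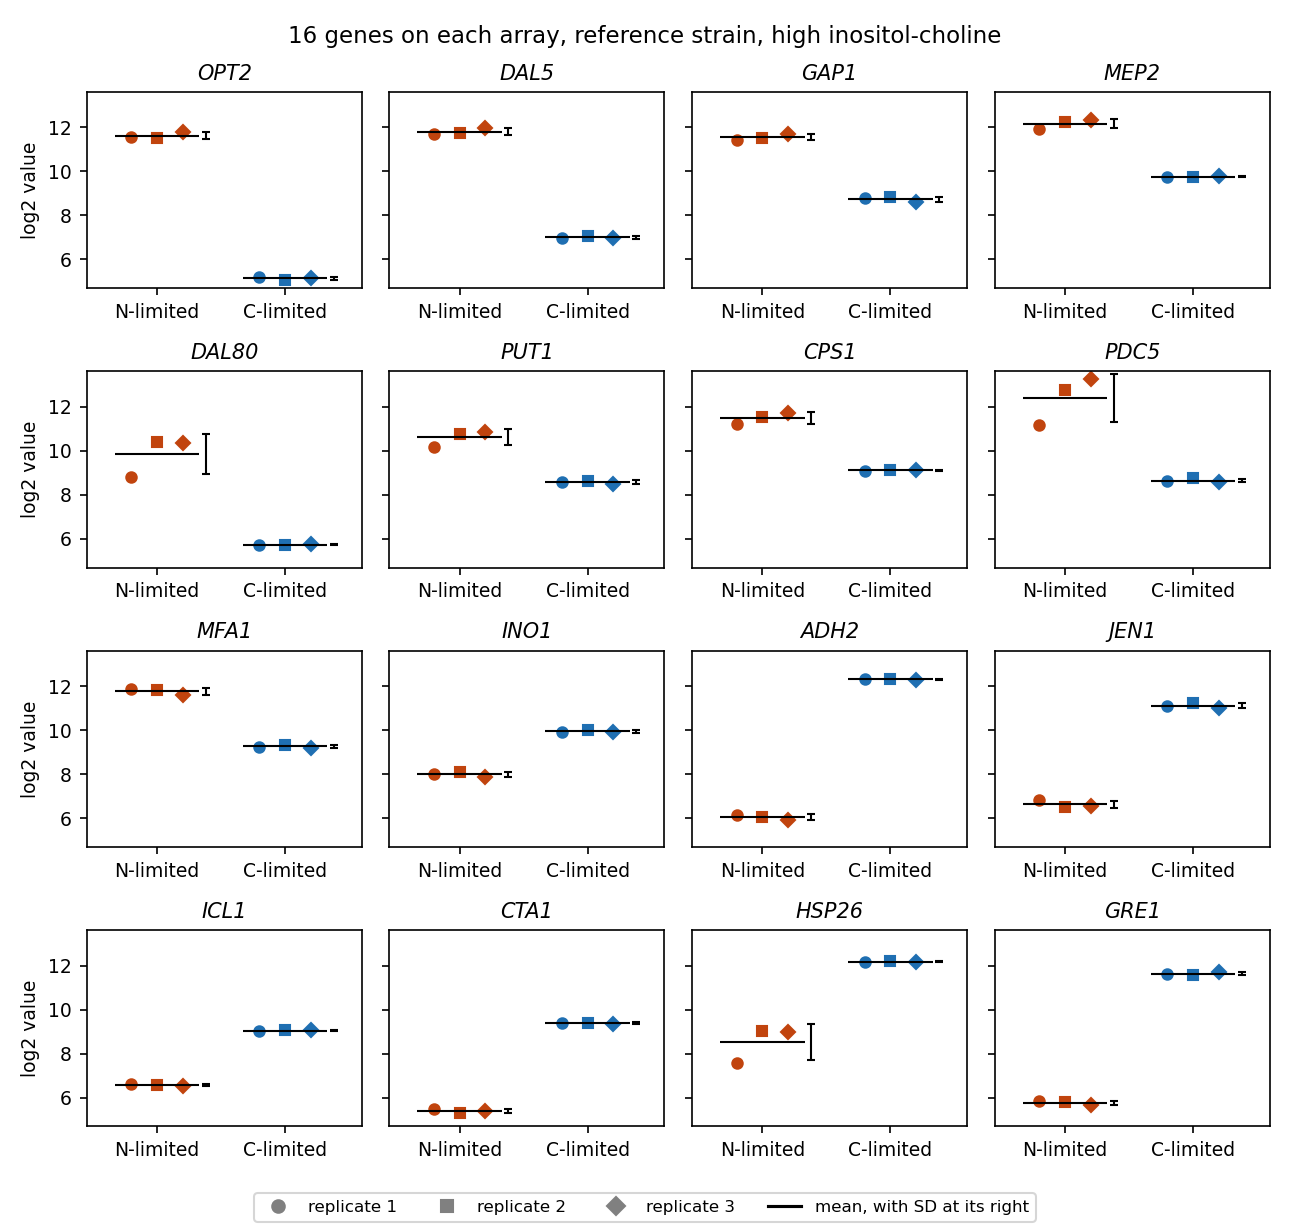
Deposited log2 value of 16 genes on each of 3 nitrogen-limited (left in each panel) and 3 carbon-limited arrays (right), with group means as lines and SD as bars. In all 16 panels the groups do not overlap, and replicate 1 of the nitrogen-limited group stands apart for DAL80, PDC5 and HSP26.

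Permeases for nitrogen sources were called more often than genes in general. Of 30 measured, 16 (15 to 19) were called higher, where the share over all genes was 16.7%, and 5 (5 to 7) lower, with a median difference of 0.58. GAP1, the general amino acid permease, gave 11.43, 11.51 and 11.70 on nitrogen-limited arrays, against 8.79, 8.82 and 8.61 on carbon-limited arrays (6.99-fold higher, adjusted p = 7.22e-06). MEP2, the high-affinity ammonium permease and sensor, gave 11.92, 12.22 and 12.35 on nitrogen-limited arrays, against 9.74, 9.74 and 9.80 on carbon-limited arrays (5.30-fold higher, adjusted p = 2.56e-05). Both were high on all nitrogen-limited arrays. Of the other ammonium permeases, MEP3 rose by 0.76, while MEP1 differed by -0.61 and was not called (adjusted p = 0.141). PUT4, the proline permease, gave 10.53, 10.94 and 11.11 on nitrogen-limited arrays, against 9.19, 9.21 and 9.0 on carbon-limited arrays, and rose 3.31-fold. OPT1, a second oligopeptide transporter, gave 6.97, 8.04 and 8.43 on nitrogen-limited arrays, against 5.40, 5.49 and 5.44 on carbon-limited arrays and was at least 4.64-fold higher, with N1 lowest. The urea carrier gene DUR3 rose by 2.36, the allantoin permease gene DAL4 by 2.29, AGP1, a broad amino acid permease, by 1.27, MUP3, a methionine permease, by 1.15 and UGA4, the GABA permease, by 0.56. CAN1, the arginine permease, gave 8.02, 8.75 and 9.30 under nitrogen limitation and 8.09, 8.0 and 7.79 under carbon limitation, where N1 overlapped the carbon-limited arrays, and was not called. A smaller set of amino acid permease genes fell. BAP2, for branched-chain amino acids, gave 6.26, 6.01 and 6.06 on nitrogen-limited arrays, against 8.81, 8.71 and 8.56 on carbon-limited arrays (5.98-fold lower), and MMP1, for S-methylmethionine, gave 6.19, 6.13 and 6.14 on nitrogen-limited arrays, against 8.69, 8.78 and 8.54 on carbon-limited arrays (5.71-fold lower). Neither gene's arrays overlapped between the groups. GNP1, for glutamine, changed by -1.15, HIP1, for histidine, by -1.0 and AGP3 by -0.79, all as log2 differences.

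Genes for the use of allantoin and urea rose nearly throughout. Of 9 measured, 8 (8 to 9) were called higher and none lower, against 16.7% and 12.7% of all genes. Their median was 1.72. DAL7, a malate synthase of allantoin breakdown, gave 10.01, 9.58 and 9.49 on nitrogen-limited arrays, against 6.82, 6.99 and 6.96 on carbon-limited arrays (6.81-fold higher). DAL1, allantoinase, gave 7.02, 7.20 and 7.27 on nitrogen-limited arrays, against 5.43, 5.40 and 5.50 on carbon-limited arrays and was at least 2.96-fold higher. In both, every nitrogen-limited array was above every carbon-limited one. DAL2, allantoicase, rose by 1.25 and DAL3, ureidoglycolate lyase, by 0.68. The pathway activators differed in their calls, since DAL81 rose by 0.59 while DAL82 differed by 0.27 and was not called (adjusted p = 0.278).

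Among 16 regulators of nitrogen use, 8 (4 without C1 to 10) were called higher and 0 (0 to 2 without N1) lower. The shares over all genes were 16.7% and 12.7%. Of the 4 GATA factors of nitrogen catabolite repression, DAL80 rose as above, and the activator GAT1 gave 9.85, 10.25 and 10.35 on nitrogen-limited arrays, against 9.08, 9.17 and 9.04 on carbon-limited arrays (2.07-fold higher, adjusted p = 0.00232). The repressor gene GZF3 rose by 0.43, while the activator gene GLN3 differed by -0.16 and URE2, whose product holds Gln3 in the cytoplasm, by -0.06, and neither was called (adjusted p = 0.242 and 0.708). NPR1, a kinase that keeps permeases at the cell surface, rose by 0.93. NPR2 and NPR3, subunits of a complex that restrains the TORC1 kinase, rose by 0.52 and 1.18, and TOR1 and TOR2, the TOR kinases themselves, by 0.47 and 0.28. GCN4, the activator of amino acid synthesis whose level is set mainly by translation, gave 11.13, 11.66 and 11.84 under nitrogen limitation and 11.51, 11.55 and 11.48 under carbon limitation and was not called. Its N1 value lay below, and N2 and N3 above, all carbon-limited arrays.

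Enzymes for glutamate, proline, arginine and aromatic amino acids moved in both directions. Of 21 measured, 3 (2 to 7 without N1) were called higher and 8 (7 to 10) lower, against 16.7% and 12.7% of all genes. PUT1, proline oxidase, gave 10.19, 10.77 and 10.86 on nitrogen-limited arrays, against 8.59, 8.65 and 8.49 on carbon-limited arrays (4.09-fold higher, adjusted p = 0.000366), whereas PUT2, the next enzyme, differed by 0.88 and was not called (adjusted p = 0.109) and PUT3, their activator, changed by -0.50. GLT1, glutamate synthase, gave 10.43, 10.42 and 10.63 on nitrogen-limited arrays, against 9.57, 9.70 and 9.57 on carbon-limited arrays and rose by 0.88. GLN1, glutamine synthetase, and GDH1, which makes glutamate from ammonium, differed by 0.38 and 0.36 and were not called. GDH2, which releases ammonium from glutamate, gave 8.54, 8.67 and 8.76 on nitrogen-limited arrays, against 9.36, 9.44 and 9.22 on carbon-limited arrays and changed by -0.68. The ornithine aminotransferase gene CAR2 gave 7.37, 7.62 and 7.58 on nitrogen-limited arrays, against 9.16, 9.13 and 9.20 on carbon-limited arrays (3.11-fold lower) and CAR1, arginase, changed by -0.75. The transaminase gene ARO9, of aromatic amino acid breakdown, gave 6.13, 5.75 and 5.66 on nitrogen-limited arrays, against 8.23, 8.26 and 8.12 on carbon-limited arrays and was 5.12-fold lower, and ARO10, the decarboxylase that follows it, changed by -1.63. For CAR2 and ARO9 the groups were far apart, on all 6 arrays.

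Several peptidase genes, most of them vacuolar, were called higher, and few genes of autophagy, which delivers cell material to the vacuole. Of 11 hydrolases and their inhibitors, mostly but not all of the vacuole, 5 (5 to 7) were called higher and 1 (1 to 2 without N1) lower. Over all genes the shares were 16.7% and 12.7%. CPS1, vacuolar carboxypeptidase S, gave 11.20, 11.55 and 11.70 on nitrogen-limited arrays, against 9.09, 9.11 and 9.12 on carbon-limited arrays (5.19-fold higher, adjusted p = 4.71e-05). APE1, an aminopeptidase that autophagy's Cvt branch carries, rose by 1.06, DAP2 by 0.90, APE2, not a vacuolar enzyme, by 0.82 and PEP4, a protease that activates vacuolar enzymes, by 0.46. PRB1 and PRC1 differed by -0.20 and -0.03 and were not called. The one fall was AMS1, alpha-mannosidase, at -1.41. Of 37 autophagy genes, 2 (0 without C1 to 7 without N1) were called higher and 7 (3 without C2 to 9) lower. In either direction 24.3% of them were called, below the 29.3% of all genes. ATG1, the kinase that starts autophagy, gave 6.46, 7.40 and 7.48 on nitrogen-limited arrays, against 8.29, 8.27 and 7.97 on carbon-limited arrays and changed by -1.06, with N1 lowest. ATG34 and ATG41 changed by -1.31 and -1.31. ATG8, the membrane-bound marker of autophagosomes, gave 9.79, 9.17 and 9.10 under nitrogen limitation and 8.99, 8.94 and 9.01 under carbon limitation and was not called (adjusted p = 0.175), though its arrays did not overlap.

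Genes of amino acid synthesis fell more often than all genes did. Of 59 measured, 4 (2 without C1 to 9 without N1) were called higher and 24 (7 without C2 to 31) lower, where the share called lower over all genes was 12.7%, with a median of -0.30. ARO4, which opens the aromatic pathway, gave 7.91, 8.41 and 8.66 on nitrogen-limited arrays, against 9.70, 9.56 and 9.70 on carbon-limited arrays (2.51-fold lower, adjusted p = 0.00328). HOM3 and HOM2, the first 2 steps of threonine and methionine synthesis from aspartate, changed by -1.17 and -1.29, and LEU4, the first step of the leucine branch, by -1.04. Steps of arginine synthesis also fell, among them ARG7 by -1.09 and ARG8 by -0.73. Among the rises, ASN1, asparagine synthetase, gave 10.94, 10.86 and 10.59 on nitrogen-limited arrays, against 10.07, 9.998 and 10.18 on carbon-limited arrays and rose by 0.71, while its isoenzyme gene ASN2 changed by -0.56. ARO7, chorismate mutase, rose by 0.87. Sulfur assimilation and purine synthesis were not called more often than the 29.3% over all genes, with 3 (0 without C1 to 11 without N1) higher and 2 (2 to 4 without N1) lower of 28 for sulfur, and 3 (1 without C1 to 7 without N1) higher and 2 (0 without C1 to 4 without N1) lower of 21 for purines. MHT1, which uses S-methylmethionine as does the permease gene MMP1, changed by -1.40, and IMD2, of the GTP pathway, rose by 1.22.

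**Figure D4:**
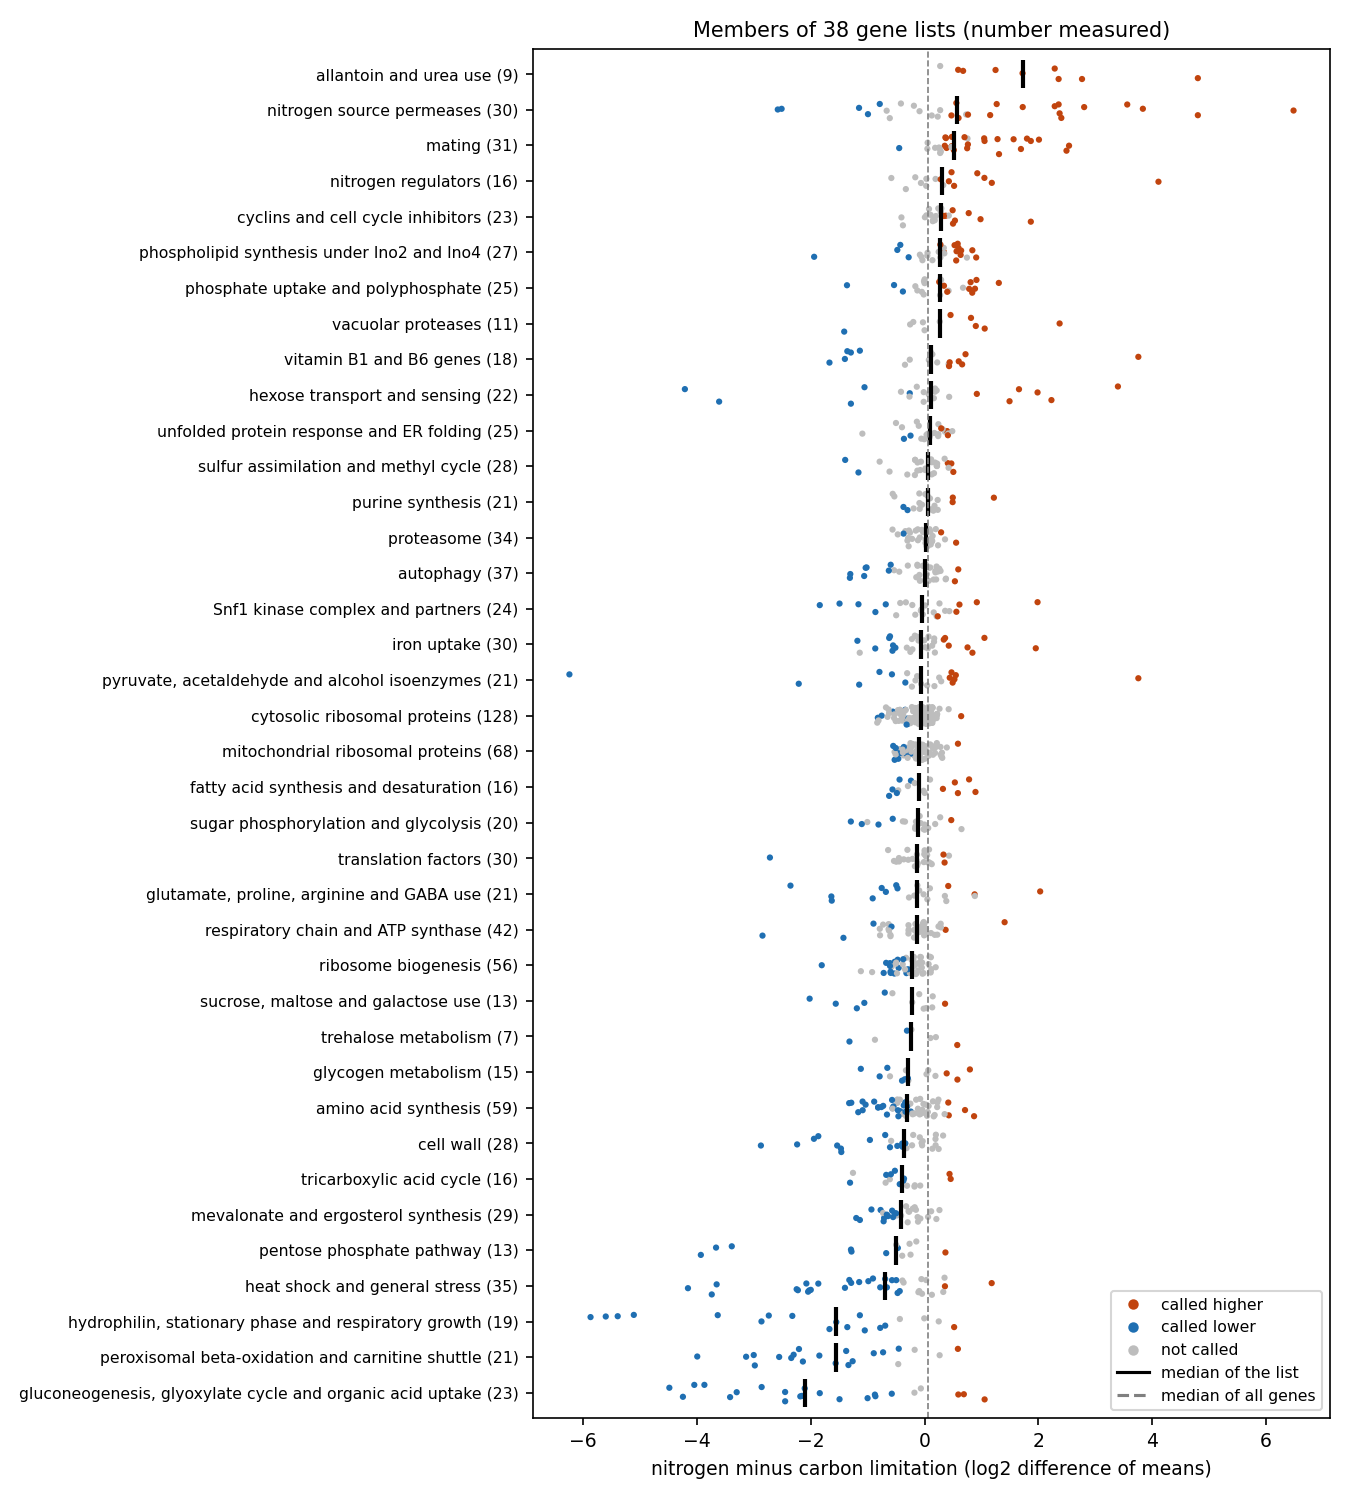
Nitrogen minus carbon difference (log2) of the measured members of 38 gene lists, 1 point per gene, coloured by call, with the median of each list as a bar and the median of all genes, 0.06, as a dashed line. Lists run from allantoin and urea use, with a median of 1.72, to gluconeogenesis with the glyoxylate cycle, with -2.11; each gene can belong to several lists.

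Gluconeogenesis, the glyoxylate cycle and organic acid uptake held the lowest median of the 38 lists. Of 23 genes measured, 18 (17 to 18) were called lower and 3 (2 to 3) higher, against 12.7% and 16.7% of all genes. Their median was -2.11. ACS1, the acetyl-CoA synthetase of acetate growth, gave 7.04, 7.17 and 7.27 on nitrogen-limited arrays, against 11.01, 11.12 and 10.97 on carbon-limited arrays (14.6-fold lower). ICL1, isocitrate lyase of the glyoxylate cycle, gave 6.65, 6.60 and 6.55 on nitrogen-limited arrays, against 9.02, 9.06 and 9.08 on carbon-limited arrays (5.47-fold lower, adjusted p = 2.65e-06). FBP1, fructose-1,6-bisphosphatase, gave 5.25, 5.30 and 5.35 on nitrogen-limited arrays, against 7.77, 7.61 and 7.87 on carbon-limited arrays and was at least 4.48-fold lower. The replicates lay close together in both groups for these genes. PCK1, which makes phosphoenolpyruvate from oxaloacetate, changed by -1.0, MDH2, its partner malate dehydrogenase, by -2.18, and IDP2, the cytosolic isocitrate dehydrogenase, by -3.30. The activator genes ADR1, SIP4 and CAT8 changed by -1.50, -1.84 and -0.86. MLS1, malate synthase, which acts right after isocitrate lyase, went the other way and gave 9.48, 10.01 and 10.05 on nitrogen-limited arrays, against 8.71, 8.80 and 8.86 on carbon-limited arrays (log2 difference 1.06, adjusted p = 0.0044), with no overlap. Whether its probe set measures it apart from DAL7, the malate synthase gene of allantoin breakdown, which also rose, was not tested. CIT2, the peroxisomal citrate synthase, and ERT1, a regulator, were the other rises, at 0.69 and 0.59.

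Peroxisomal beta-oxidation of fatty acids and the carnitine shuttle fell nearly throughout. Of 21 measured, 17 (16 to 18) were called lower and 1 (1 to 2 without N1) higher, against 12.7% and 16.7% of all genes. Their median was -1.56. CTA1, the peroxisomal catalase, gave 5.48, 5.30 and 5.39 on nitrogen-limited arrays, against 9.41, 9.41 and 9.34 on carbon-limited arrays and was at least 13.9-fold lower. POX1, FOX2 and POT1, the 3 enzymes of the beta-oxidation spiral, changed by -3.14, -3.0 and -2.98. POX1 gave 6.19, 6.25 and 6.11 on nitrogen-limited arrays, against 9.36, 9.42 and 9.18 on carbon-limited arrays, so that all nitrogen-limited arrays were about 3 units lower. The carnitine acetyltransferase genes CAT2, YAT1 and YAT2 changed by -2.21, -1.85 and -2.14, and the fatty acid importers PXA1 and PXA2 by -2.34 and -1.34. The one rise was FAA1, a fatty acid activating enzyme, at 0.59. OAF1 and PIP2, the activators of these genes under oleate, differed by 0.27 and -0.17 and were not called.

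Hexose transporter genes moved in both directions. Of 22 genes of hexose transport and sensing, 6 (6 to 7) were called higher and 5 (4 to 7) lower. Among all genes the shares were 16.7% higher and 12.7% lower. HXT1, a low-affinity transporter of high glucose, gave 7.53, 8.11 and 8.03 on nitrogen-limited arrays, against 5.57, 5.78 and 5.62 on carbon-limited arrays (4.69-fold higher), and HXT4 rose by 1.66. HXT2, a high-affinity transporter, gave 6.45, 7.0 and 7.03 on nitrogen-limited arrays, against 10.48, 10.50 and 10.34 on carbon-limited arrays and was 12.2-fold lower. HXT7, high-affinity and not measured apart from its near-identical copy HXT6, gave 10.27, 10.02 and 10.17 on nitrogen-limited arrays, against 11.23, 11.28 and 11.12 on carbon-limited arrays (2.08-fold lower). In each of these the groups did not overlap. The glucose-induced repressor genes MIG2 and MIG3 rose by 1.99 and 0.92 and STD1 by 1.49, whereas MIG1, RGT2 and SNF3 differed by 0.21, 0.18 and -0.27 and were not called. SUC2, invertase, gave 6.80, 7.60 and 7.67 on nitrogen-limited arrays, against 9.43, 9.46 and 9.26 on carbon-limited arrays (4.06-fold lower), and the maltose genes MAL11 and MAL32, the second not measured apart from MAL12, changed by -1.56 and -1.19. Of 13 genes for sucrose, maltose and galactose, 5 (5 to 7) were called lower and 1 (0 without C1 to 2 without N1) higher.

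In the conversion of pyruvate and acetaldehyde, isoenzymes changed in opposite directions. Of 21 genes, 6 (3 without C1 to 10 without N1) were called higher and 6 (5 to 8) lower. Shares over all genes were 16.7% higher and 12.7% lower. PDC1, the main pyruvate decarboxylase, gave 12.19, 12.24 and 12.41 on nitrogen-limited arrays, against 11.76, 11.86 and 11.74 on carbon-limited arrays and rose by 0.49, and ADH1, the main fermentative alcohol dehydrogenase, rose by 0.44. ALD4, the mitochondrial acetaldehyde dehydrogenase, gave 10.15, 9.97 and 9.89 on nitrogen-limited arrays, against 12.18, 12.33 and 12.13 on carbon-limited arrays and was 4.63-fold lower. Other isoenzyme genes fell, ALD3, ALD5, ALD6 and ADH5, which changed by -1.15, -0.79, -0.34 and -0.57, and ALD2 rose by 0.55. In the pentose phosphate pathway, 7 (5 to 9) of 13 genes were called lower and 1 (0 without C1 to 1) higher. GND2, the minor isoform of 6-phosphogluconate dehydrogenase, gave 7.10, 7.08 and 7.03 on nitrogen-limited arrays, against 10.43, 10.52 and 10.43 on carbon-limited arrays (10.5-fold lower) while the major isoform gene GND1 rose by 0.37. TKL2, the minor transketolase, changed by -3.93 and NQM1, the minor transaldolase, by -3.67, and their major isoforms TKL1 and TAL1 differed by -0.15 and -0.39 and were not called.

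Genes of glycolysis, the tricarboxylic acid cycle and respiration differed in how many were called. Of 20 glycolytic genes and hexose kinases, 4 (3 to 5) were called lower and 1 (0 without C1 to 6 without N1) higher. HXK1, the hexokinase used without glucose, gave 9.24, 9.91 and 9.78 on nitrogen-limited arrays, against 10.96, 10.94 and 10.92 on carbon-limited arrays (2.46-fold lower), while HXK2, the hexokinase of glucose growth, differed by -0.09 (adjusted p = 0.877). GLK1, glucokinase, changed by -1.10 with N1 the lowest of its group. Of 16 genes of the tricarboxylic acid cycle, 7 (1 without C1 to 11 without N1) were called lower and 2 (0 without C1 to 3) higher, where the shares over all genes were 12.7% and 16.7%. SDH1, of succinate dehydrogenase, gave 8.11, 8.96 and 9.39 on nitrogen-limited arrays, against 10.19, 10.30 and 9.90 on carbon-limited arrays and changed by -1.31, and its N1 stood low. Of 42 genes of the respiratory chain and ATP synthase, 4 (3 to 9 without N1) were called lower and 2 (1 without C1 to 4 without N1) higher. With all arrays both were below the shares over all genes. Without N1 the share called lower was near the 21.6% of all genes. NDE2, an external NADH dehydrogenase, gave 6.49, 6.33 and 6.21 on nitrogen-limited arrays, against 9.13, 9.25 and 9.19 on carbon-limited arrays (7.21-fold lower), and GUT2, the glycerol-3-phosphate dehydrogenase of mitochondria, changed by -1.43. COX5B, the cytochrome oxidase subunit of low oxygen, gave 7.91, 7.51 and 7.26 on nitrogen-limited arrays, against 6.10, 6.13 and 6.24 on carbon-limited arrays and rose by 1.41, whereas COX5A, its counterpart in air, differed by -0.28, and HAP4, the activator of respiration, by -0.16, both not called.

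Stress genes were lower under nitrogen limitation. Of 35 genes of heat shock and general stress, 23 (18 to 27) were called lower and 2 (1 without C1 to 3) higher. The shares over all genes were 12.7% lower and 16.7% higher, and the median of the list was -0.69. HSP26, a small heat shock protein, gave 7.57, 9.02 and 8.99 on nitrogen-limited arrays, against 12.18, 12.22 and 12.14 on carbon-limited arrays (12.6-fold lower, adjusted p = 0.000807), with N1 more than 1 unit below N2 and N3. HSP30, a membrane stress protein, gave 7.04, 6.70 and 6.64 on nitrogen-limited arrays, against 10.49, 10.48 and 10.63 on carbon-limited arrays (13.4-fold lower). SSA4, an Hsp70 induced by heat, gave 7.58, 7.52 and 7.51 on nitrogen-limited arrays, against 9.76, 9.87 and 9.73 on carbon-limited arrays (4.75-fold lower). No nitrogen-limited array reached the carbon-limited range for these genes. The cytosolic catalase gene CTT1 changed by -1.32, HSP12 by -0.78, HSP104, a disaggregase, by -0.69 and DDR2, a gene that many stresses induce, by -2.0. Of the factors that switch them on, MSN4 rose by 1.18 and HSF1 by 0.36, while MSN2 differed by -0.06 and was not called. In the list of hydrophilin, stationary phase and respiratory growth genes, 15 (14 to 16) of 19 were called lower and 1 (0 without C1 to 2 without N1) higher, the kinase gene RIM15 at 0.52. SPG1 changed by -3.64, FMP45 by -2.87 and FMP16 by -2.74, and the vitamin B6 gene SNZ1 by -1.67. RGI1 gave 8.53, 8.74 and 8.54 under nitrogen limitation and 8.56, 8.63 and 8.63 under carbon limitation and was not called, unlike its paralogue RGI2.

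Reserve carbohydrates showed a mixed pattern. Of 15 glycogen genes, 6 (2 without C2 to 8) were called lower and 3 (1 without C1 to 3) higher. Among all genes 12.7% were called lower and 16.7% higher. GPH1, glycogen phosphorylase, gave 9.66, 9.90 and 9.83 on nitrogen-limited arrays, against 9.04, 9.05 and 8.91 on carbon-limited arrays and rose by 0.80, while GDB1, the debranching enzyme, changed by -0.79 and PGM2, the major phosphoglucomutase, by -1.12. The glycogen synthase genes GSY1 and GSY2 differed by 0.06 and -0.28 and were not called. Of 7 trehalose genes 2 (1 without C1 to 3) were called lower and 1 (0 without C1 to 3 without N1) higher. ATH1, acid trehalase, changed by -1.32, TSL1 by -0.31, and TPS3 rose by 0.57. Of 28 cell wall genes, 14 (8 without C3 to 18) were called lower and 0 (0 to 5 without N1) higher. PIR3, a wall protein, gave 6.87, 7.09 and 6.97 on nitrogen-limited arrays, against 9.84, 9.85 and 9.86 on carbon-limited arrays (7.35-fold lower), and the mannoproteins TIR3, HPF1 and SED1 changed by -2.24, -1.94 and -1.46. The glucan synthase genes FKS1 and GSC2 differed by 0.19 and 0.20 and were not called.

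Genes of the growth machinery differed by list. Of 56 genes of ribosome biogenesis, 14 (6 without C2 to 42 without N1) were called lower and none higher, where 12.7% of all genes were called lower with all arrays and 21.6% without N1. Their median was -0.21 with all arrays and -0.31 without N1. NSR1, a nucleolar protein, gave 7.10, 7.92 and 7.92 on nitrogen-limited arrays, against 9.44, 9.41 and 9.50 on carbon-limited arrays (3.50-fold lower), and NOP13 changed by -0.72. Of 128 genes of cytosolic ribosomal proteins, 7 (2 without C1 to 28 without N1) were called lower and 1 (1 to 3 without N3) higher, with a median of -0.06. Both shares were smaller than over all genes with all arrays. Without N1 the share called lower was near the 21.6% of all genes. Many of these genes are near-identical pairs that arrays may not measure apart. RPS14B, 1 of 2 copies, gave 8.88, 9.03 and 9.06 on nitrogen-limited arrays, against 9.70, 9.73 and 9.81 on carbon-limited arrays and changed by -0.75, and RPS27A rose by 0.64. Of 68 mitochondrial ribosomal protein genes, 9 (2 without C2 to 23 without N1) were called lower and 1 (0 without C1 to 4 without N3) higher. With all arrays the share called lower was near the 12.7% of all genes. At 23 of 68 without N1, it was above the 21.6% of all genes. Of 30 translation factors 2 (0 without C1 to 4 without N1) were called higher and 1 (1 to 7 without N1) lower. The fall was HEF3, a second form of elongation factor 3, which gave 7.03, 6.40 and 6.43 on nitrogen-limited arrays, against 9.41, 9.23 and 9.38 on carbon-limited arrays, whereas the main form YEF3 rose by 0.35. Of 34 proteasome genes 2 (0 without C1 to 9 without N1) were called higher and 1 (0 without C1 to 2 without N1) lower, the activator RPN4 at -0.37. In either direction, 14.7% of mitochondrial ribosomal protein, 10% of translation factor and 8.82% of proteasome genes were called, against 29.3% of all genes. Among 23 cyclins and cell cycle regulators, 8 (2 without C1 to 14 without N1) were called higher, where the share over all genes was 16.7%, and none lower. CLN3, the cyclin that starts the cycle, gave 8.47, 8.80 and 8.79 on nitrogen-limited arrays, against 7.82, 7.91 and 7.37 on carbon-limited arrays and rose by 0.98, and FAR1, which halts it in response to pheromone, gave 7.84, 8.72 and 8.95 on nitrogen-limited arrays, against 6.60, 6.64 and 6.66 on carbon-limited arrays and was 3.65-fold higher.

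Many genes of phospholipid synthesis are regulated by inositol and choline, through the activators Ino2 and Ino4 and the repressor Opi1. Of 27 genes of phospholipid synthesis, 11 (5 without C1 to 18 without N1) were called higher and 4 (1 without C1 to 4) lower. Over all genes the shares were 16.7% higher and 12.7% lower. INO1, which makes inositol-3-phosphate, gave 8.03, 8.09 and 7.88 on nitrogen-limited arrays, against 9.91, 10.004 and 9.92 on carbon-limited arrays, and was 3.84-fold lower (adjusted p = 1.51e-05), with all nitrogen-limited arrays almost 2 units below. The called rises were smaller in size. CHO2 and OPI3, which methylate phosphatidylethanolamine to phosphatidylcholine, rose by 0.56 and 0.64, CKI1, choline kinase, by 0.91, PIS1, phosphatidylinositol synthase, by 0.84 and ITR1, the inositol permease, by 0.53. INO4 rose by 0.58, INO2 changed by -0.28, and OPI1 differed by -0.04 and was not called. Fatty acid synthesis gave 5 (3 without C1 to 5) higher and 5 (2 without C1 to 5) lower of 16, among them FAS1 at -0.56, ACC1, acetyl-CoA carboxylase, at -0.24, OLE1, the desaturase, at -0.49 and ELO1, an elongase, at 0.90. Of 29 genes of the mevalonate and ergosterol pathway, 12 (8 to 16) were called lower and 0 (0 to 4 without N1) higher. ERG6, sterol methyltransferase, gave 10.03, 10.25 and 10.17 on nitrogen-limited arrays, against 11.34, 11.36 and 11.35 on carbon-limited arrays (2.30-fold lower), ERG3 changed by -1.14 and HMG1, the HMG-CoA reductase of aerobic growth, by -0.93.

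Of 31 mating genes, 21 (12 without C1 to 26) were called higher and 1 lower, against 16.7% and 12.7% of all genes. Their median was 0.51. MFA1 and MFA2 encode a-factor, the pheromone of MATa cells. MFA1 gave 11.87, 11.81 and 11.60 on nitrogen-limited arrays, against 9.25, 9.33 and 9.21 on carbon-limited arrays (5.64-fold higher) and MFA2 gave 11.67, 11.79 and 11.68 on nitrogen-limited arrays, against 9.14, 9.27 and 9.11 on carbon-limited arrays (5.82-fold higher). The replicates lay close together for both. STE2, the receptor of the other pheromone, gave 9.59, 10.92 and 11.06 on nitrogen-limited arrays, against 8.70, 8.72 and 8.75 on carbon-limited arrays and rose by 1.80, with N1 lower than N2 and N3. STE6, the a-factor exporter, rose by 2.01, FUS1, of cell fusion, by 1.57, and STE12, the pathway's transcription factor, by 0.76. STE3, the receptor of alpha cells, gave 5.79, 5.79 and 5.77 on nitrogen-limited arrays, against 6.13, 6.25 and 6.30 on carbon-limited arrays and was the one member called lower. MF(ALPHA)1, a pheromone gene of alpha cells, gave 6.60, 7.56 and 7.66 on nitrogen-limited arrays, against 6.02, 5.91 and 6.04 on carbon-limited arrays and rose by 1.28, and its second copy MF(ALPHA)2 differed by 0.05 and was not called.

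Genes of phosphate, iron and vitamin supply changed in part. For all lists in this paragraph, the shares over all genes were 16.7% higher and 12.7% lower. Of 25 phosphate genes, 9 (6 to 13) were called higher and 3 (1 without C1 to 3) lower. VTC1, of the vacuolar polyphosphate polymerase, gave 10.36, 9.91 and 10.12 on nitrogen-limited arrays, against 8.80, 8.83 and 8.84 on carbon-limited arrays (2.47-fold higher), and its partners VTC2, VTC3 and VTC4 rose by 0.81, 0.40 and 0.84. PHO84 and PHO5, the usual markers of phosphate starvation, differed by -0.16 and -0.01 and were not called, and PHO89, a sodium-dependent phosphate carrier, gave 6.58, 6.28 and 6.41 on nitrogen-limited arrays, against 7.83, 7.91 and 7.61 on carbon-limited arrays and changed by -1.36. Of 30 iron genes, 7 (4 without C1 to 9) were called higher and 7 (5 to 10) lower. FET4, the low-affinity iron carrier, gave 7.60, 7.71 and 7.74 on nitrogen-limited arrays, against 5.75, 5.65 and 5.78 on carbon-limited arrays (3.88-fold higher). The high-affinity genes FET3 and FTR1 differed by -0.22, not called, and -0.51, called. Of 18 genes of vitamins B1 and B6, 6 (3 without C1 to 8) were called higher and 5 (5 to 7) lower, PDC5 and SNZ1 among them. THI4, of thiamine synthesis, gave 6.58, 6.20 and 6.37 on nitrogen-limited arrays, against 7.67, 7.65 and 7.72 on carbon-limited arrays and changed by -1.30, while THI80, which makes thiamine pyrophosphate, rose by 0.72. Of 25 genes of the unfolded protein response, 3 (0 without C1 to 8 without N1) were called higher and 2 (0 without C1 to 5 without N1) lower, and KAR2, its main chaperone, differed by -0.50 and was not called. In either direction 20% of them were called, below the 29.3% of all genes. Of 24 genes of the Snf1 complex and its partners, 5 (3 without C1 to 8 without N1) were called higher and 5 (5 to 6) lower. The beta subunit gene SIP2 changed by -0.68, GAL83 differed by 0.44 and SIP1 by -0.50, both not called, and TOS3, ELM1 and SAK1, the kinases that activate Snf1, rose by 0.56, 0.61 and 0.23.

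The response to the limiting nutrient was then set against the same comparison at the low level of inositol and choline, which shares no array with it. Across the 5449 genes both log2 differences correlated with r = 0.896, a description over genes that share array design and strain. The interaction was called for 111 genes (2.04%), 53 with a more positive (0.973%) and 58 with a more negative (1.06%) difference at the high level. Left-out arrays moved this count to between 46, without C1, and 509, without N1, with 402 without N3 and 54 without C2. It was 65 and 55 without carbon-limited replicates 1 and 2 of the low level and 50, 60 and 60 without nitrogen-limited replicates 1, 2 and 3 of the low level. The smallest adjusted p was that of INO1, whose difference was -1.94 at the high level and 1.60 at the low level (interaction -3.54, SE 0.12, adjusted p = 4.16e-08). INO1 means were 8.0 and 9.94 under nitrogen and carbon limitation at the high level, and 11.60 and 10.002 at the low level. The glutamate and aspartate permease gene DIP5 differed by 3.84 at the high level and by 1.35 at the low level (adjusted p = 1.31e-05). HXT7 differed by -1.06 at the high level and -2.53 at the low level, and ISF1, a gene of respiratory growth, by -1.12 and -2.71. IMD2 differed by 1.22 at the high level and -0.22 at the low level, and RGI1 by -0.01 and -1.21. The more negative interactions included mating genes, AGA1 with 1.05 at the high level and 2.73 at the low level, FIG2 with 0.39 and 1.72, and ASG7, an a-specific gene, with 0.40 and 1.36. MF(ALPHA)1 differed by 1.28 at the high level and 4.44 at the low level (adjusted p = 0.000208). NRK1, nicotinamide riboside kinase, differed by 1.56 and 2.60. Of the 31 mating genes 7 had a called interaction, of the 27 phospholipid genes 7 and of the 30 iron genes 6, against 2.04% of all genes. DAL5 and GAP1 did not pass, since DAL5 differed by 4.81 and 4.38 (adjusted p = 0.0647) and GAP1 by 2.81 and 2.83 (adjusted p = 0.925).

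The second comparison was with the snf1 mutant at the same high level. For its 3 arrays whose title carries N, the description repeats the carbon-limited text; they were taken as nitrogen-limited by title. DAL5 averaged 11.65 on them and 6.90 on the mutant's carbon-limited arrays, against 11.80 and 7.0 in the reference strain. SNF1 averaged 4.98 and 4.99 in the mutant, below the background floor, which was 5.56 at the lowest over the 24 arrays. The interaction of strain and limitation was called for 614 genes (11.3%), 263 more positive (4.83%) and 351 more negative (6.44%) in the reference strain than in the mutant. Leaving out 1 array gave 437 to 763, and leaving out both nitrogen-limited replicate 1 arrays, which share a low 5' signal, gave 1686. The 3' to 5' difference was 2.68, 1.42 and 0.98 on the mutant's nitrogen-limited arrays. Several of the largest falls in the reference strain were smaller in the mutant. ADY2 differed by -4.05 in the reference strain and -0.10 in the mutant (interaction -3.95, SE 0.08, adjusted p = 5.63e-10), and GRE1 by -5.87 and -1.19 (adjusted p = 5.63e-10). RGI2 differed by -5.61 in the reference strain and -1.82 in the mutant, SPG1 by -3.64 and -0.33, and SHH3, a paralogue of a succinate dehydrogenase subunit, by -3.85 and -0.37. ADH2 differed by -6.24 in the reference strain and -3.35 in the mutant. MLS1 differed by 1.06 in the reference strain and 3.72 in the mutant, so its interaction was negative as well (-2.66, adjusted p = 5.52e-06). Of the 23 genes of gluconeogenesis and the glyoxylate cycle 16 had a called interaction, of 21 of beta-oxidation 15, of 35 of heat shock 25 and of 19 of the hydrophilin list 15, against 11.3% of all genes. The list medians were -2.11, -1.56, -0.69 and -1.55 in the reference strain, against -0.42, -0.53, 0.15 and -0.10 in the mutant. Of the 68 mitochondrial ribosomal protein genes 28 had one, with medians of -0.09 in the reference strain and -0.65 in the mutant. In the other direction, HXT7 differed by -1.06 in the reference strain and -2.88 in the mutant, YJL213W, an uncharacterised gene, by 2.29 and 0.14, CIT2 by 0.69 and -0.42, MFA2 by 2.54 and 1.37, and ULI1, an unfolded protein response gene, by 0.29 and -1.32. None of the 9 allantoin and urea genes or of the 16 nitrogen regulators had a called interaction with strain, and 8 of the 30 permeases did. At the 11.3% of all genes, lists of 9 and 16 would hold few such genes, so their absence says little about these lists.

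**Figure D5:**
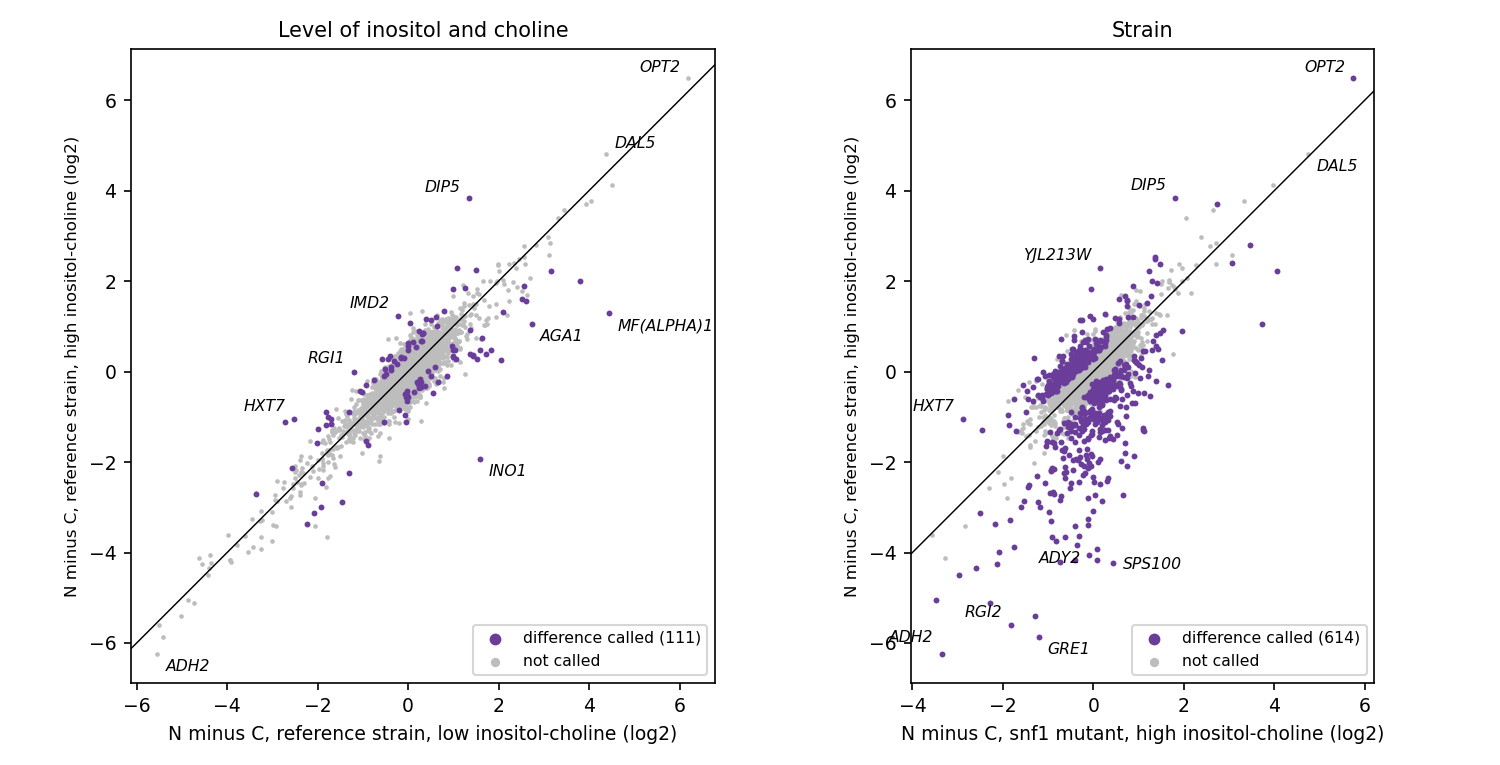
Nitrogen minus carbon difference (log2) of 5449 genes in the reference strain at high inositol-choline (vertical) against the reference strain at low inositol-choline (left, horizontal) and the snf1 mutant at high inositol-choline (right, horizontal), with genes whose difference between the 2 comparisons was called in purple (111 on the left, 614 on the right) and equality as a line. On the left INO1 and DIP5 lie far from the line, and on the right the genes with the lowest vertical values, such as GRE1 and ADY2, lie below it.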

How the data were processed

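Values are the log2 expression values deposited by the authors, 1 column per array; per the submitters' processing notes they were made with PLIER, while the labels name no log base, pseudocount or step that scales the arrays to each other. Each S. cerevisiae gene was represented by the probe set with the highest mean over the 24 arrays, and Schizosaccharomyces pombe probe sets on the same arrays gave the background floor. Groups were taken from the array titles. Differences were tested with limma 3.58.1 (lmFit and eBayes) in R 4.3.3 on the 6 arrays compared, or on the 12 arrays of an interaction, and p-values were Benjamini-Hochberg adjusted over 5449 genes; a gene is called at an adjusted p under 0.05. The code was checked on simulated data, with the same spread per gene in both groups and again with each group's own. The fit pools the spread of the groups, though the median SD over genes was 0.186 in the nitrogen-limited and 0.0614 in the carbon-limited group. An exact permutation test of 3 against 3 arrays cannot give a two-sided p below 0.1. For a gene below the floor on every array of 1 group, the fold is a lower bound against the floor. Named genes are the 15 largest rises and 15 largest falls with separate groups, members of 38 gene lists, the 5 smallest adjusted p in each direction of each interaction, and SNF1. Members and lists were chosen with earlier results of these data known, so no count over a list is independent support for its direction. Alternatives were another scaling, filter, probe set choice, spread estimate, weighting, covariate, replicate block, fold threshold and each array left out. Precision is limited by the 3 arrays per group.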

Additional observations from a re-analysis of the deposited data

Results flagged for a closer look

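The differences listed here were called as differing between levels of inositol and choline or between strains, by an interaction test in limma. They are the 5 smallest adjusted p in each direction of each interaction and any called interaction among the 15 largest rises and falls. Between inositol-choline levels, the nitrogen minus carbon difference at the high level minus that at the low level was 2.49 for DIP5, 1.47 for HXT7, 1.44 for IMD2, 1.20 for RGI1 and 1.59 for ISF1. It was -3.54 for INO1, -1.68 for AGA1, -1.04 for NRK1, -1.33 for FIG2 and -0.96 for ASG7. For INO1 the difference had opposite signs, -1.94 at the high and 1.60 at the low level.

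Between strains at the high level, the difference in the reference strain minus that in the snf1 mutant was positive for 9 of the genes, with 0.74 for OPT2, 2.04 for DIP5, 0.98 for EEB1, 1.17 for MFA2, 1.14 for MFA1, 1.61 for ULI1, 2.15 for YJL213W, 1.11 for CIT2 and 1.82 for HXT7. Of the rises, GAP1 had a negative one, -0.66, since it rose by 2.81 in the reference strain and differed by 3.46 in the mutant. HXT7 is a fall with a positive value, -1.06 in the reference strain and -2.88 in the mutant. The other falls listed gave negative values, with -2.90 for ADH2, -4.68 for GRE1, -3.78 for RGI2, -4.11 for SIP18, -2.82 for SPG4, -1.58 for FDH1, -1.51 for JEN1, -1.74 for ATO3 and -2.13 for SFC1. They were -4.66 for SPS100, -3.47 for HXT5, -3.75 for SSA3, -4.24 for YDL218W, -3.95 for ADY2, -3.48 for SHH3 and -3.31 for SPG1. Groups of 3 arrays are too small for the outlier test, so no array was tested by it.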

How the results depend on the processing

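Every alternative but the 2-fold threshold, which was run on counts over all genes alone, kept the direction and the call of the 35 genes followed singly, which are the 15 largest rises, the 15 largest falls, the genes that check the labels and INO1. The rises and falls were picked as the largest called differences on these same arrays, so their stability was largely fixed in advance. It does not speak for other genes. The counts of called genes moved much more. Quantile normalization, median centring, the filter on dim genes, all probe sets and trended and robust moderation kept the main count of 1598 within 1.5 times (1489 to 1612). The count was 2850 (1709 higher, 1141 lower) with the spread of all 24 arrays, 4306 (2587, 1719) with array weights, whose estimation gave convergence warnings, 2805 (1658, 1147) with the 3' to 5' covariate and 362 (126, 236) with a 2-fold threshold. With 1 array left out it was 715 to 2930 (330 to 1753 higher, 381 to 1177 lower), and the excess of rises turned to one of falls without C1 (330 higher, 385 lower) and C2 (370, 381), as with the 2-fold threshold. Replicate numbers do not pair nitrogen-limited with carbon-limited arrays (correlations of deviations -0.12, -0.09 and -0.21), and with the number as a replicate block 1031 genes were called, 524 higher and 507 lower. The inositol-choline interaction, 111 genes, gave 269 (149 more positive, 120 more negative) with all 24 arrays, 2838 (1663, 1175) with weights, 477 (268, 209) with the covariate, 25 (7, 18) with 2-fold, 71 (29, 42) with the replicate block and 46 to 509 (17 to 265, 28 to 244) with 1 array left out. The strain interaction, 614 genes, gave 1121 (579, 542) with all 24 arrays, 3430 (2075, 1355) with weights, 1918 (1101, 817) with the covariate, 193 (28, 165) with 2-fold and 437 to 763 (158 to 361, 277 to 410) with 1 array left out. Replicate numbers do pair both strains' nitrogen-limited arrays (0.90, 0.78 and 0.87), while the correlations of their carbon-limited arrays were 0.03, 0.10 and -0.05. The main fit of the strain interaction takes all arrays as independent. The replicate block gave 664. That block fits the same replicate effect to all arrays of the interaction, so it cannot fully remove a pairing seen under nitrogen limitation only. Without both N1 arrays, an alternative chosen after seeing the data, 1686 (953, 733) were called. In both interactions the side with more calls changed with all 24 arrays, weights and the covariate, in the inositol-choline one also with median centring (59, 55) and without N1 (265, 244), N2 (61, 56) or N3 (232, 170), and in the strain one without both N1 arrays. The cause of these moves was not tested. Of the 76 list counts, in 2 directions for 38 lists, the block moved 23, the covariate 33 and array weights 49 by more than 1.5 times. Omission of C1, C2 or C3 moved 40, 36 and 37 of them, and omission of N1, N2 or N3 moved 34, 29 and 14. Limits are the 3 arrays a group, the unknown origin of replicates, the unstated base and scaling of the values, and the low 5' signal of N1. The 3' to 5' difference was higher on all nitrogen-limited arrays, and its part in the results was tested only as that covariate.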

Other observations

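Families outside the lists were chosen after their values were seen. Over all genes 16.7% were called higher and 12.7% lower with all arrays, and 32.2% and 21.6% without N1; ranges in parentheses are those with 1 array left out. Of 7 measured AVT genes, vacuolar amino acid transporters, 6 (4 to 6) were called higher and none lower, with a median of 0.78. Of 15 genes of the vacuolar proton pump and its assembly, the VMA genes, 7 (6 to 13 without N1) were called higher and none lower, with a median of 0.57 with all arrays and 0.82 without N1. Of 3 MPC genes, subunits of the mitochondrial pyruvate carrier, 2 were called lower with all arrays and with any 1 left out, namely MPC3 at -2.71 and MPC1 at -1.0. None was called higher, and 1 was without N1. MPC3, the subunit of respiratory growth, gave 7.56, 7.49 and 7.32 on nitrogen-limited arrays, against 10.16, 10.13 and 10.22 on carbon-limited arrays, with no overlap. Of 25 PEX genes of peroxisome formation, 1 was called higher, 0 without N2 or any carbon-limited array and 2 without N1 or N3, and 5 were called lower, the second count 7 without N1 and 3 without N2 or any carbon-limited array. The 13 measured PAU genes, near-identical cell wall genes that probe sets may not tell apart, gave 3 (2 to 4) higher and 6 (6 to 7) lower.

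Single genes with large differences include ICY1 at 2.23, PIC2, a mitochondrial phosphate and copper carrier, at 2.25, FSH1 at 2.06, PHD1, a regulator of filamentous growth, at 2.0 and RSB1 at 1.99. Among the rises were the nitrilase-like YIL165C at 2.37 and NIT3 at 1.45. YIL165C gave 10.38, 10.16 and 10.11 on nitrogen-limited arrays, against 7.77, 7.83 and 7.94 on carbon-limited arrays, so the groups did not overlap. The asparaginase gene ASP3-1, not measured apart from its copies, rose by 1.67. Falls include SHH3, at least 14.3-fold lower, PMA2, the minor plasma membrane proton pump, at -3.42, NCA3 at -3.36, FAT3 at -3.27, AQY1, an aquaporin, at -2.36, GUT1, glycerol kinase, at -1.94, and CYB2, the L-lactate dehydrogenase, at -1.73.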
